A study of Mus musculus with 9 samples.

Results

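Lipid-associated macrophages are the cells that gather around dying adipocytes in enlarged fat and take up the lipid these release. Their surface receptor TREM2 binds lipids and lipoproteins. Having no signalling tail of its own, TREM2 passes its signal through the adaptor DAP12, the product of Tyrobp, which recruits the kinase SYK. Cells that have switched on this programme carry tetraspanins and lysosomal proteins, secrete osteopontin and galectin-3, hold a fatty acid carrier and often display the integrin chain CD11c. The genes described here are 9 of these markers: Trem2, Tyrobp, Cd9, Cd63, Gpnmb, Spp1, Lgals3, Fabp5 and Itgax. They were taken by symbol from a deposited table of 14905 genes, in which all 9 were found.

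The cells were isolated from the visceral fat of C57BL/6 mice by a flow cytometry gate on F4/80 and CD11b, a pair of surface proteins of macrophages, and their polyadenylated RNA was sequenced. Of the 9 libraries, 5 came from Nucb2-/- mice (KO) and 4 from wild-type mice (WT), with no other allele or treatment named. The labels do not describe how Nucb2 was disrupted or in which cells, and they give neither age nor sex nor diet. The series title speaks of obesity, and the deposited table, which holds all 9 libraries, carries in its name the letters HFD, a usual abbreviation of high-fat diet. Whether the libraries stem from separate mice is not stated either, and p-values therefore reflect the variation among these samples alone, part of which may be technical. Nucb2, which encodes the calcium-binding protein nucleobindin-2, stood at 34.8% of its WT mean in KO, and its KO and WT ranges did not overlap.

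The values are read counts divided by 1 factor per library, called normalized counts here. Depth, as read from the steps between values, was 74937721 reads or more in 6 libraries (KO 1 to 4, WT 1 and 2) and 55004978 or fewer in the other 3 (KO 5, WT 3 and 4). Cells of other types were visible in both groups. Summed over 7 fibroblast markers, the normalized count was between 285537 and 444157 in KO and between 199943 and 334682 in WT. Summed mesothelial markers (6 of 7 measured) were at 5253 to 16781 in KO and 1768 to 7128 in WT, and 7 endothelial markers at 3556 to 6445 and 1492 to 3296. Summed over 8 mast cell markers, KO was at 1850 to 3492 and WT at 6081 to 10799, with Fcer1a, a chain of the IgE receptor, at the floor of the table in all 5 KO libraries. Summed over 8 dendritic cell markers, which matter here because such cells also carry CD11c, KO was at 14080 to 17977 and WT at 8801 to 13171. Of these genes, the dendritic Cd209a rose, from 4154 ± 1182 in WT to 7634 ± 1014 in KO (limma, adjusted p = 0.022), and made up a large share of the dendritic sum. Clec9a, a receptor of another dendritic subset named here after its values were seen, stood the other way, at 50.1 ± 32.2 and 411 ± 281 without overlap (adjusted p = 0.22). The mast cell genes Cpa3, Tpsb2, Cma1 and Fcer1a fell (adjusted p from 0.0092 to 0.022). None of the measured markers of T and NK cells (6), B cells (4) or neutrophils (5) passed the test. The defining markers of macrophages, 8 genes that include Csf1r, Cd68 and Lyz2, summed to 1287310 to 1496740 in KO and 1284600 to 1445680 in WT. Lyz2, at 809546 ± 58683 in KO and 825447 ± 48939 in WT, made up a large share of that sum. None of the 8 passed the test, with 3 at an unadjusted limma p under 0.05. Of these, Fcgr1 was lower in KO without overlap, at 10015 ± 1208 and 14253 ± 2765 (adjusted p = 0.12). Adgre1 was lower too, at 91199 ± 5643 and 106114 ± 8809 (adjusted p = 0.28). Itgam was higher, at 23739 ± 1945 and 20943 ± 1097 (adjusted p = 0.52). The part of the other cell types in the results below was not tested.

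All 9 markers were abundant. Itgax, the lowest, had a higher mean normalized count than 88.0% of the genes in the table, and Tyrobp, the highest, than 99.6%. Levels can be compared between genes only after division by transcript length, and on that scale (normalized counts per kb of the longest principal transcript, mean of 9 libraries) the adaptor stood far above its receptor. Tyrobp was at 190548 per kb, between 164323 and 212050, and its range met that of no other marker. Lgals3 followed at 74025 and Cd63 at 71850, with ranges that overlapped. Cd9 was at 42564 and Trem2 at 23860, each apart from the marker above it. Spp1 at 15156 had a range that reached into that of Trem2, and it overlapped with Gpnmb at 12420 and Fabp5 at 12182. Itgax was lowest, at 1435 per kb, between 1269 and 1797. When the union of all annotated exons was used as the length, Trem2 moved from place 5 to place 7, so the order in the middle depends on which transcripts are assumed.

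Promoter sequences from RefSeq (GRCm38.p6) were found for 7 of the 9 markers, all but Tyrobp and Fabp5. Shown are those of Trem2, Cd63, Cd9 and Spp1, genes of 2 of the 3 pairs that passed a correlation test described further on. The third pair, Tyrobp and Fabp5, had no promoter sequence to show. Each window holds up to 120 bases just before the RefSeq start, 5′ to 3′ on the gene's strand, without bases that GENCODE places in an exon of the same gene. Capitals mark matches to the motifs searched. Distances below are counted from the RefSeq start, and the shorter window of Cd9 ends before that start. Spp1 has 2 entries, of which the upstream one is shown.
Trem2, chr17:48346281-48346400, plus strand: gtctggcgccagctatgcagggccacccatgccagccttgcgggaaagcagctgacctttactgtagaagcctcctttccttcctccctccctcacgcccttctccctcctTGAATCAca
Cd63, chr10:128909225-128909344, plus strand: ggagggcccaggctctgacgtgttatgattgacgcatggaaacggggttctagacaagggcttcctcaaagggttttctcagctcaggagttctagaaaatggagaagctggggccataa
Cd9, chr6:125494792-125494880, minus strand: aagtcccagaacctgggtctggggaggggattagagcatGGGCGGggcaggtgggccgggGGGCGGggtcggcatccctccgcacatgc
Spp1, chr5:104434991-104435110, plus strand: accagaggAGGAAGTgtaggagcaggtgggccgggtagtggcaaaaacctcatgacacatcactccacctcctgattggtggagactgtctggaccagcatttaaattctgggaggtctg
On both strands of the 250 bases before each start, 4 motifs were searched, and matches of different motifs did not overlap in the markers' windows. The AP-1 motif TGANTCA was found 9 bases before the start of Trem2 and 56 before that of Itgax, and it occurs in 6.75% of the 32851 promoters of the RefSeq table. The GC box GGGCGG lay 81 and 60 bases before the start of Cd9 and 7 before that of Lgals3 (32.7% of all promoters hold it). The match of Lgals3 lies in bases that GENCODE places in an exon. The ETS motif AGGAAGT lay 112 bases before the start of Spp1 (7.69% of all). The E box CACGTG, the core of the sites that the lysosomal regulators TFEB and MITF bind, was in none of the 8 promoter windows of the markers, against 6.02% of all. These are matches of letters only, and no binding was measured. In the 2 pairs shown, the members shared no motif of the 4.

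The comparison of KO with WT asks whether these cells differ in the programme between Nucb2-/- and wild-type mice. None of the 9 markers passed the test (limma, Benjamini-Hochberg adjusted p under 0.05 over 14905 genes), where 0.309% of all genes did. With limma-voom the count was also 0. At an unadjusted limma p under 0.05 there were 2 markers, Fabp5 and Tyrobp, where 9.14% of all genes were and 17.2% of the 1795 genes with a mean at or above that of Itgax. The log2 difference, KO minus WT, was below 0 in 7 of the 9, with a median of -0.12, against 0.02 over all genes. Abundant genes leaned the same way: among those 1795 genes, 63.5% were below 0 and the median was -0.05. The sums of normalized counts over all genes leaned with them, at 65109031 to 67031402 in KO and 68500063 to 70902637 in WT. Rescaled to equal totals, the markers' median difference was -0.04, with 7 of 9 still below 0.

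**Figure D1:**
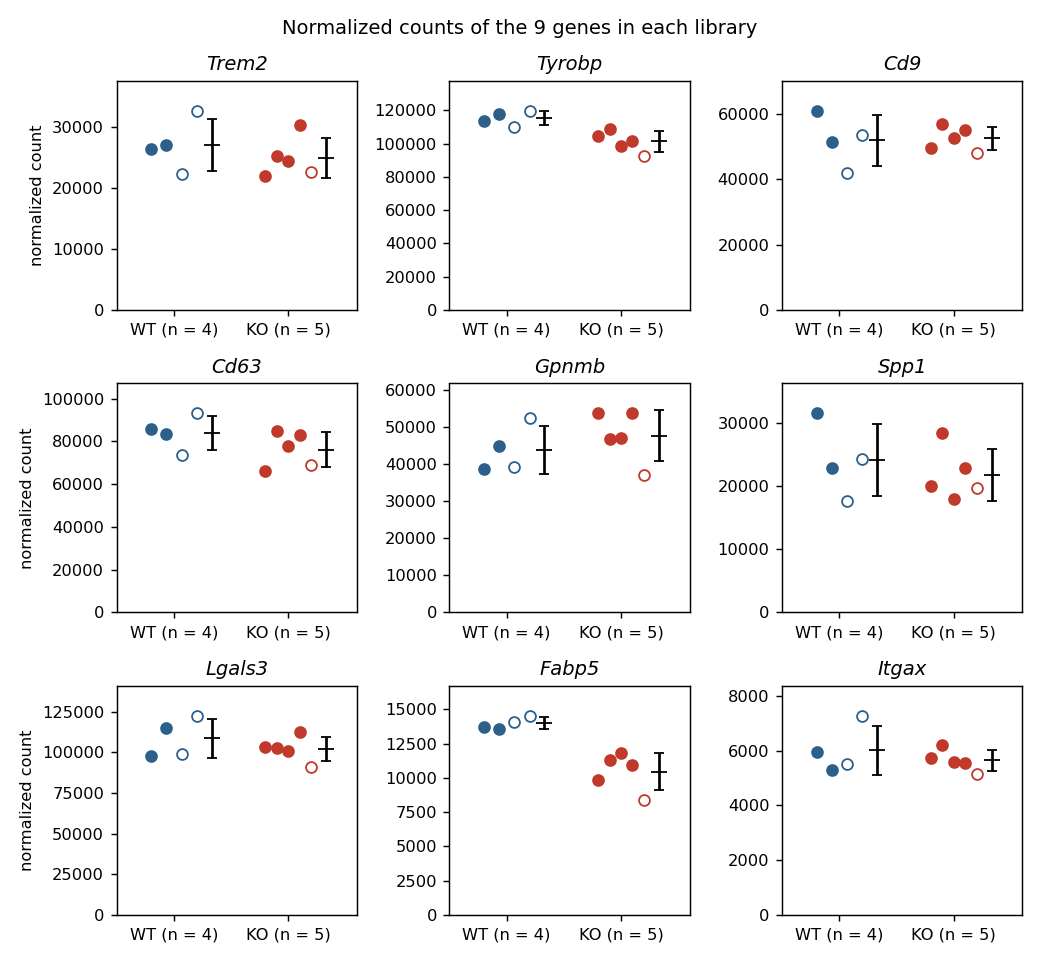
Normalized counts of each marker in 4 WT (blue) and 5 KO (red) libraries, with replicates in order from left to right; filled circles are the 6 deeper libraries and open circles the 3 shallower, and black bars give the mean and SD. The KO and WT circles lie apart only in the panels of Tyrobp and Fabp5.

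Trem2, the receptor (chromosome 17, 48346401 to 48354147, plus strand), had much the same range in both groups. In KO its normalized counts were 22090, 25294, 24547, 30470 and 22632 in replicates 1 to 5, and in WT 26420, 27150, 22317 and 32720 in replicates 1 to 4. The highest value of each group was in its replicate 4, and the groups overlapped over most of their range. The means were 25007 ± 3327 (SD, n = 5) in KO and 27152 ± 4278 (SD, n = 4) in WT. The log2 difference was -0.12, with a 95% interval of -0.35 to 0.12 (limma, adjusted p = 0.80), which in linear terms spans 0.783 to 1.09 times the WT level.

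Tyrobp, which encodes the DAP12 adaptor (chromosome 7, 30413760 to 30417585, plus strand), was one of 2 markers whose groups did not overlap. Its normalized counts were 104714, 108661, 98781, 101394 and 92678 in KO 1 to 5 and 113694, 117695, 110006 and 119596 in WT 1 to 4. All 5 KO libraries lay below all 4 WT libraries, by a narrow gap. The means of 101246 ± 6052 (SD, n = 5) and 115248 ± 4273 (SD, n = 4) put KO at 87.9% of WT. The log2 difference was -0.19 (interval -0.32 to -0.05), which did not pass the test over all genes (limma, adjusted p = 0.30). By exact permutation over the 126 ways of dividing 9 libraries into 5 and 4, two-sided, p was 0.0159. It was -0.16 among the 6 deeper libraries and -0.31 among the 3 shallower ones. When the libraries were rescaled to equal totals the groups overlapped, with a highest KO value of 110513 and a lowest WT value of 107016. Scaled to the core macrophage markers, they stayed apart by a narrow gap, at most 106983 in KO and at least 107999 in WT.

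The proportion of receptor to adaptor had overlapping ranges in the 2 groups. For each 100 normalized counts of Tyrobp there were 24.7 ± 3.3 of Trem2 in KO (SD, n = 5) and 23.5 ± 2.9 in WT (SD, n = 4). Fcer1g, the other common adaptor of myeloid receptors, was at 96590 ± 5158 in KO and 109260 ± 7335 in WT, a log2 difference of -0.18 (limma, adjusted p = 0.39). Tyrobp per 100 Fcer1g was 105 ± 2 in KO and 106 ± 9 in WT. For 8 such ratios of a marker to a partner gene, exact two-sided permutation tests were run and adjusted together. Neither of these 2 passed (adjusted p = 0.63 for Trem2 to Tyrobp and 0.85 for Tyrobp to Fcer1g).

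Fabp5 had the largest difference of the 9 (chromosome 3, 10012548 to 10016607, plus strand). It encodes a carrier that binds fatty acids in the cytoplasm of macrophages, skin cells and others. Its normalized counts were 9844, 11277, 11816, 10921 and 8415 in KO 1 to 5, and 13731, 13586, 14099 and 14526 in WT 1 to 4. Every KO library was below every WT library, and the WT values lay within a narrow band while the KO values were spread more widely, with KO 5 lowest. The means were 10455 ± 1349 (SD, n = 5) and 13985 ± 420 (SD, n = 4), so KO stood at 74.8% of WT. The log2 difference was -0.43, with a 95% interval of -0.64 to -0.22. It ranked 95 of 14905 genes by p and missed the threshold (limma, adjusted p = 0.0945). The exact permutation p, two-sided, was 0.0079, which is the minimum for groups of 5 and 4. Over 24 alternative settings the adjusted p ran from 0.086 to 0.49, and the difference stayed below 0 in each.

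The difference of Fabp5 was of unequal size at the 2 depths. Among the 6 deeper libraries it was -0.32 (limma, adjusted p = 0.49), and among the 3 shallower, where KO 5 is the only KO library, it was -0.77. Without KO 5 it was -0.35 (adjusted p = 0.20). The KO and WT values stayed apart after rescaling to equal totals (at most 12153 in KO and at least 13194 in WT). They also stayed apart after rescaling to the mean log2 value of the core macrophage markers (at most 11899 and at least 13044). The related carrier Fabp4, abundant in adipocytes and induced in lipid-laden macrophages, was at 44516 ± 5518 in KO and 54166 ± 9248 in WT, with overlapping ranges and a log2 difference of -0.27 (limma, adjusted p = 0.48). Fabp5 per 100 Fabp4 was 23.6 ± 2.4 in KO and 26.5 ± 5.2 in WT (exact permutation, adjusted p = 0.53 over 8 ratios). Of the other carriers of the family, Fabp1, Fabp3 and Fabp7 were the ones measured and none of them passed the test. Summed adipocyte markers, 8 genes, were at 492 to 1090 in KO and 891 to 1100 in WT, and their part in the Fabp4 and Fabp5 values was not tested.

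Of the 9 markers, then, 2 had groups that did not overlap, with KO the lower. Of all genes, 3.15% were separated in either direction and 1.6% with every KO library below every WT library. Among the 1795 genes at the level of Itgax or above, 5.74% were separated with KO the lower.

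**Figure D2:**
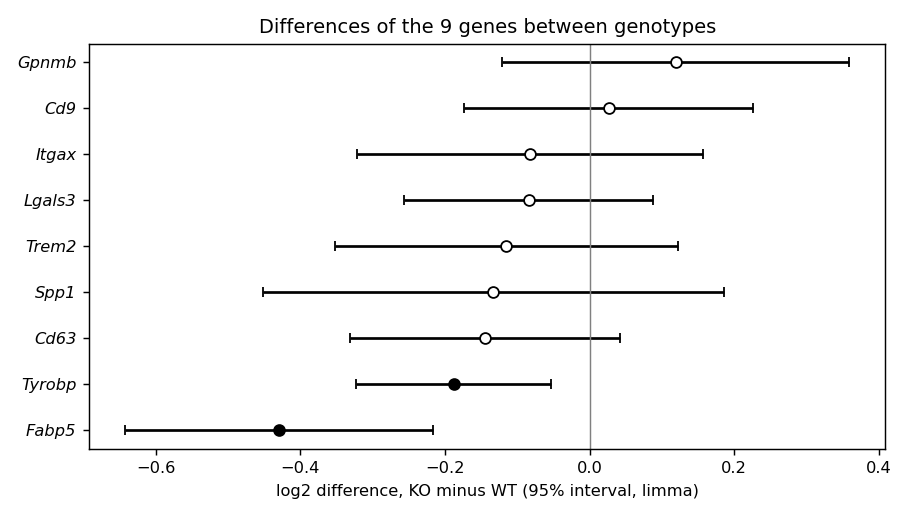
Log2 difference of each marker, KO minus WT, with its 95% interval from limma; filled points mark the genes whose KO and WT libraries did not overlap. The intervals of Fabp5 and Tyrobp lie below 0 and those of the other 7 include 0.

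The tetraspanins Cd9 and Cd63, 4-pass membrane proteins of the cell surface and of late endosomes, differed little. Cd9 (chromosome 6, 125460266 to 125494791, minus strand) was at 49708, 56948, 52676, 55136 and 48192 normalized counts in KO 1 to 5, and at 60968, 51375, 41968 and 53444 in WT 1 to 4. The KO values fell inside the range of WT, whose extremes were WT 1 and WT 3. Its log2 difference was 0.03 (interval -0.17 to 0.23; limma, adjusted p = 0.95). Cd63 (chromosome 10, 128900989 to 128912822, plus strand) was at 66301, 84780, 77648, 82963 and 69095 in KO and 86051, 83300, 73852 and 93145 in WT. KO 1 and KO 5 lay below every WT library, WT 1 and WT 4 above every KO library, and the rest overlapped. Its log2 difference was -0.14 (interval -0.33 to 0.04; adjusted p = 0.66). Among 22 other tetraspanin genes none passed the test, 16 were above 0, and the median difference was 0.17. In 1 of them, Cd53, every KO library was below every WT library, with means of 109815 ± 2195 and 118721 ± 4816 (limma, adjusted p = 0.58). In 1, the scarce Tspan2, named here after its values were seen, every KO library was above, at 147 ± 86 and 9.6 ± 11.3 (adjusted p = 0.093). Of all 14905 genes, 238 (1.6%) were separated with KO the lower and 231 with KO the higher.

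Gpnmb and Cd9 were the 2 markers with a KO mean above the WT mean. Gpnmb, a membrane glycoprotein of lysosomes and melanosomes (chromosome 6, 49036546 to 49070929, plus strand), had 53677, 46744, 47145, 53657 and 37094 normalized counts in KO 1 to 5 and 38755, 44947, 39166 and 52496 in WT 1 to 4. KO 5 was the lowest of all 9 libraries while the other 4 KO libraries lay above 3 of the WT libraries. The log2 difference was 0.12 (interval -0.12 to 0.36; limma, adjusted p = 0.80), and its sign turned with depth, at 0.27 among the deeper libraries and -0.29 among the shallower. Set against the adaptor, Gpnmb per 100 Tyrobp was 47.0 ± 5.4 in KO and 37.9 ± 4.3 in WT. The ranges of that ratio, 40.0 to 52.9 and 34.1 to 43.9, overlapped (exact permutation p = 0.0397, adjusted p = 0.159 over 8 ratios).

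The secreted markers were Spp1, which encodes osteopontin, and Lgals3, which encodes the sugar-binding protein galectin-3. Spp1 (chromosome 5, 104435118 to 104441050, plus strand) varied most between libraries, with 20053, 28502, 17996, 22862 and 19682 normalized counts in KO 1 to 5 and 31538, 22847, 17700 and 24378 in WT 1 to 4. Its coefficient of variation was 18.9% in KO and 23.7% in WT, where genes of a similar level had medians of 8.27% and 8.04%. The groups overlapped almost completely, and the log2 difference was -0.13 (interval -0.45 to 0.19; limma, adjusted p = 0.83). Lgals3 (chromosome 14, 47367751 to 47386160, plus strand) was at 103407, 102748, 101063, 112446 and 91273 in KO and 97789, 114944, 99162 and 122537 in WT. Its groups overlapped too, with a log2 difference of -0.08 (interval -0.26 to 0.09; adjusted p = 0.80). None of 8 osteopontin receptor genes passed the test, with Cd44 at 53137 ± 4943 in KO and 58846 ± 4355 in WT (adjusted p = 0.60). None of 7 other galectin genes passed. Lgals1, the most abundant of these, was at 63851 ± 3410 and 65186 ± 4887.

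Itgax, the gene of CD11c (chromosome 7, 128129547 to 128150657, plus strand), was at 5743, 6207, 5588, 5544 and 5135 normalized counts in KO 1 to 5 and at 5954, 5311, 5502 and 7272 in WT 1 to 4. WT 4 stood above the others, and the remaining libraries of the groups were intermixed. The log2 difference was -0.08 (interval -0.32 to 0.16; limma, adjusted p = 0.85). Itgam, the gene of the sort antigen CD11b and another chain of the same integrin family, was at 23739 ± 1945 in KO and 20943 ± 1097 in WT, a log2 difference of 0.18 (adjusted p = 0.52). The ratio of the 2 chains separated the groups although neither gene passed alone. Itgax per 100 Itgam was 22.8, 24.4, 22.9, 24.0 and 24.9 in KO 1 to 5 and 27.8, 26.4, 27.6 and 32.7 in WT 1 to 4. Every KO library was below every WT library, and the log2 difference of the ratio was -0.26. The exact permutation p was 0.0079, or 0.0635 adjusted over the 8 ratios, which is the least that a single ratio could reach in that family. Both genes lie on chromosome 7, as do Nucb2 (116504369 to 116540584) and Tyrobp, and a part of this position in the values was not tested.

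Coefficients of variation of the other markers were also mostly above those of genes of a similar level, with Tyrobp in both groups, Cd9 and Itgax in KO and Fabp5 in WT as exceptions. For Trem2 they were 13.3% in KO and 15.8% in WT against medians of 7.88% and 7.77%, and for Gpnmb 14.3% and 14.7% against 7.34% and 7.0%. Fabp5 in WT was at 3.0% against 9.85%, and Tyrobp at 5.98% and 3.71% against 6.42% and 6.69%.

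The markers tended to be high or low together from library to library. Over the 9 libraries, Pearson's r of log2 values was above 0 for all 36 pairs of markers, with a median of 0.50. Among 1481781 pairs of 1722 other genes at the markers' levels it was above 0 for 53.3%, with a median of 0.04. After each group's mean was subtracted, all 36 remained above 0 and the median was 0.54. This relation was weaker within depth and after other scalings. Among the 6 deeper libraries 24 of 36 pairs were above 0 (median 0.20), with equal library totals 33 (median 0.43), and with libraries scaled to the core macrophage markers 29 (median 0.33). Among the 3 shallower libraries there are too few values for a correlation.

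By exact permutation tests adjusted over 36 pairs, 3 pairs passed, each with adjusted p = 0.0475. Trem2 and Cd63 had r = 0.87 (exact permutation p = 0.0029) and Spearman's rho = 0.83 (p = 0.0083), and r was 0.91 without the 2 libraries farthest from the median of Trem2 and 0.75 among the 6 deeper libraries. Cd9 and Spp1 had r = 0.83 (exact permutation p = 0.0040) and rho = 0.88 (p = 0.0031), with r = 0.71 without the 2 farthest libraries and 0.85 among the deeper. Both pairs thus kept a positive r of that order in the deeper libraries, and no gene of these 2 pairs separated the genotypes. The third pair, Tyrobp and Fabp5, consists of the 2 genes whose libraries formed separate groups by genotype. Its r fell to 0.54 once the group means were subtracted, and it was 0.60 within the 5 KO libraries and 0.20 within the 4 WT libraries, with no test run within a genotype. By rank, none of the 3 pairs passed (Spearman, exact permutation, adjusted p = 0.129, 0.111 and 0.129 in the order given). Under quantile normalization, equal totals or scaling to the core macrophage markers, and in the deeper libraries alone, 0 pairs passed. Receptor and adaptor were less closely tied, with r = 0.49 between Trem2 and Tyrobp (rho = 0.50; exact permutation p = 0.18, adjusted p = 0.31), r = 0.61 without the 2 farthest libraries and 0.12 among the deeper. Gpnmb had an r of 0.01 with Spp1 and with Fabp5, which became 0.09 and 0.53 once the group means were subtracted. With Lgals3 it had an r of 0.72 (rho = 0.72; exact permutation p = 0.027, adjusted p = 0.19), 0.49 without the 2 farthest libraries, and 0.92 with the group means subtracted, the highest of the 36 pairs on that scale.

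**Figure D3:**
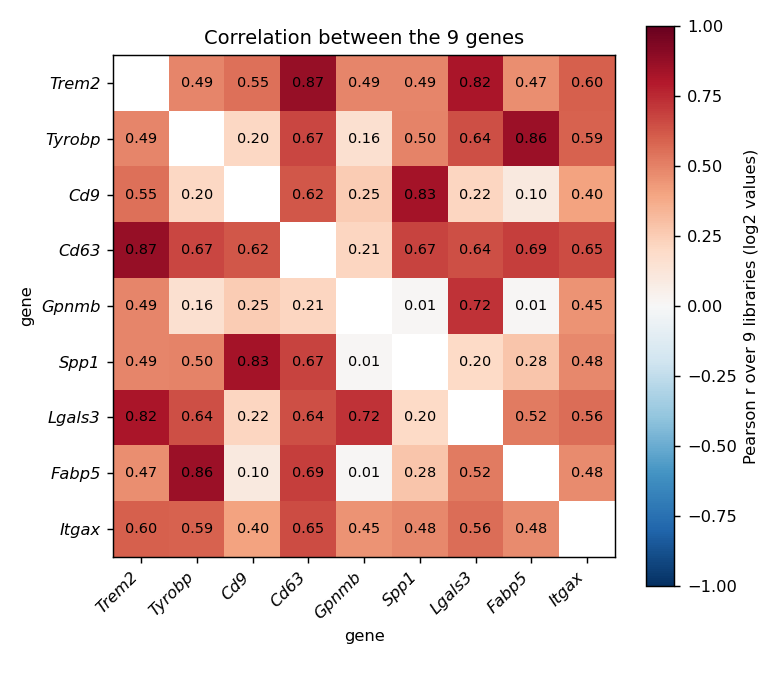
Pearson's r between the log2 values of each pair of markers over 9 libraries, printed in each cell and coloured from -1 (blue) to 1 (red). All cells are above 0; the highest are Trem2 with Cd63 (0.87), Tyrobp with Fabp5 (0.86) and Cd9 with Spp1 (0.83).

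A pair of libraries stood at the ends of this shared variation. In KO 5 all 9 markers were below their own means over the 9 libraries, by 0.23 on average on the log2 scale, and 5 of them had their lowest value there. In WT 4 all 9 were above, by 0.22 on average, and 6 had their highest value. The summed fibroblast markers ran the other way in those libraries, with 444157 in KO 5, the most, and 199943 in WT 4, the least. WT 1 had 334682, the third most, with 7 of the 9 markers above their means. Both KO 5 and WT 4 are among the shallower libraries, and so is WT 3, in which 7 markers were below their means. Leaving out KO 5 left 31 of 36 pairs above 0 with a median r of 0.43, and leaving out WT 4 left 33 with 0.37. Dcn made up a large share of the fibroblast sum, and the part of fibroblast RNA in the shared variation was not tested.

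**Figure D4:**
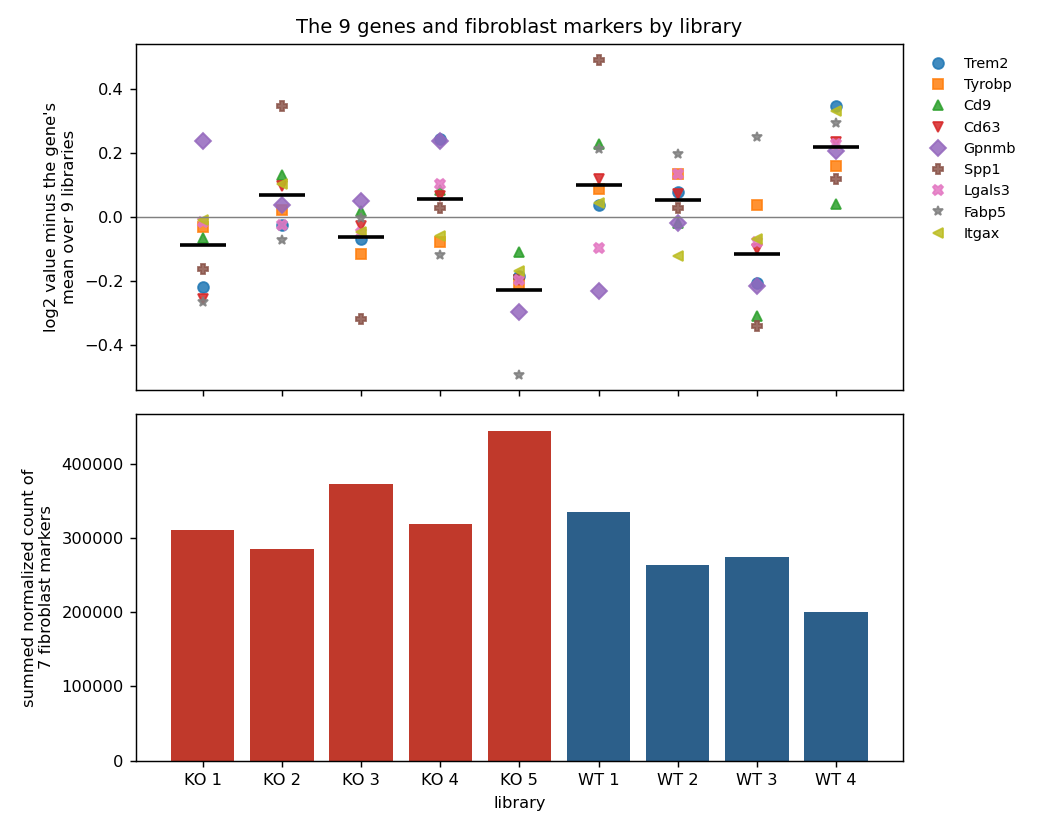
Upper panel, the log2 value of each marker minus its mean over the 9 libraries, with a black bar for the mean of the 9 markers; lower panel, summed normalized counts of 7 fibroblast markers in KO (red) and WT (blue). The markers are lowest in KO 5 (mean -0.23), where the fibroblast sum is highest, and highest in WT 4 (mean 0.22), where it is lowest. Dcn makes up a large share of the fibroblast sum.

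The genes whose pattern was most like that of each marker were found among 7291 genes by r over the 9 libraries after subtraction of the group means, which is a description over few libraries. How high the best of 7291 genes would reach by chance was not worked out. Closest to Trem2 were Rnf144b (r = 0.98), Ormdl1 (0.96) and Tnfrsf1b (0.96), the last of which encodes a receptor of tumour necrosis factor. Tyrobp was followed most closely by Ftl1 (0.94), the ferritin light chain, and by Slc16a10 and Pam16 (0.94 each). Closest to Cd9 were Mdh1 (0.96), Puf60 (0.96) and C3ar1 (0.92), the receptor of complement fragment C3a, and to Cd63 Exosc2, Ykt6 and Ppp2cb (0.95, 0.95 and 0.94). Gpnmb had Naa20 (0.97), Irak4 (0.96) and Hmgn2 (0.93), Spp1 had Rpl23 (0.96), Scp2 (0.94) and Apc (0.93), and Lgals3 had Cd93 (0.96), Pold4 (0.95) and Gbe1 (0.95). Closest to Fabp5 were Hdac3 (0.97), Tbl3 (0.96) and Stt3a (0.94), and to Itgax Ano6 (0.95), Cltc (0.94) and Mthfs (0.93). Without that subtraction r was 0.19, 0.41 and 0.23 for Fabp5 with its genes, whose differences between genotypes were above 0. It was 0.44 for Gpnmb with Hmgn2, and over all 27 genes it ran from 0.19 (Hdac3) to 0.97 (Pam16). None of these 27 genes passed the test between genotypes, and no marker was among them.

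Genes that act with the markers were counted in lists. Along the signalling path of TREM2 and DAP12, 0 of 27 genes passed the test, and 22 were below 0 (81.5%), with a median difference of -0.12. Of all genes 47.6% were below 0, and of genes at the markers' level 63.5%. An unadjusted limma p under 0.05 was found in 5 (18.5%), against 9.14% of all genes and 17.2% at the markers' level. The list also holds genes below that level. Apoe encodes an apolipoprotein that TREM2 binds. It was at 189414 ± 22964 in KO and 249355 ± 37576 in WT, a log2 difference of -0.39 (limma, adjusted p = 0.17). Syk, the kinase that DAP12 recruits, was at 9967 ± 826 and 11775 ± 680, a difference of -0.24 (adjusted p = 0.36). The adaptor gene Grb2 and the kinase gene Lyn had differences of -0.31 and -0.24 (adjusted p = 0.37 for each). The fifth gene with such a p, Clu, which encodes the lipid-binding protein clusterin and is named here after its values were seen, stood the other way, at 10050 ± 4760 in KO and 5258 ± 1257 in WT, a difference of 0.81 (adjusted p = 0.39). Of 12 measured receptors and adaptors around DAP12, 0 passed, 7 were below 0 and 5 above. Of the 12, 3 had an unadjusted limma p under 0.05 (25%, against 9.14% of all genes). Treml4 was higher in KO, at 2975 ± 734 against 1959 ± 800 in WT, a difference of 0.66 (limma, adjusted p = 0.38). Fcer1g, described above, was lower. The remaining gene, which is scarce, was lower too. Trem1, an activating receptor of the same family, was at 1943 ± 680 in KO and 1459 ± 715 in WT (adjusted p = 0.69).

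Among 38 other genes of lipid-associated macrophages and their lysosomes, 1 rose and none fell, where 0.181% of all genes rose. In the list 31 were below 0 (81.6%), with a median of -0.10, where 47.6% of all genes and 63.5% of genes at the markers' level were. An unadjusted limma p under 0.05 was found in 10 (26.3%), against 9.14% and 17.2%. The gene that rose was Dcstamp, which encodes a membrane protein needed for the fusion of macrophages into giant cells. It was at 6803 ± 922 in KO and 3532 ± 356 in WT, a log2 difference of 0.94 (SE 0.13; limma, adjusted p = 0.0033), against the direction of most of its list. Its KO values, 5174 to 7346, lay above all WT values, 3269 to 4049. It was past the threshold in 4 of 9 fits with a library left out (adjusted p from 0.0040 to 0.075) and not in the deeper libraries alone, where the difference was 1.02 (adjusted p = 0.17). In 3 of the 38 genes every KO library was below every WT library, as in 5.74% of genes at the markers' level, and they are named here after their values were seen. These were Ctss, the protease cathepsin S (218341 ± 16735 in KO and 276897 ± 35229 in WT; adjusted p = 0.13), Lipa, the lysosomal acid lipase (111669 ± 10301 and 132485 ± 8385; adjusted p = 0.25), and Cstb, an inhibitor of cathepsins (36944 ± 3033 and 43249 ± 2782; adjusted p = 0.30).

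**Figure D5:**
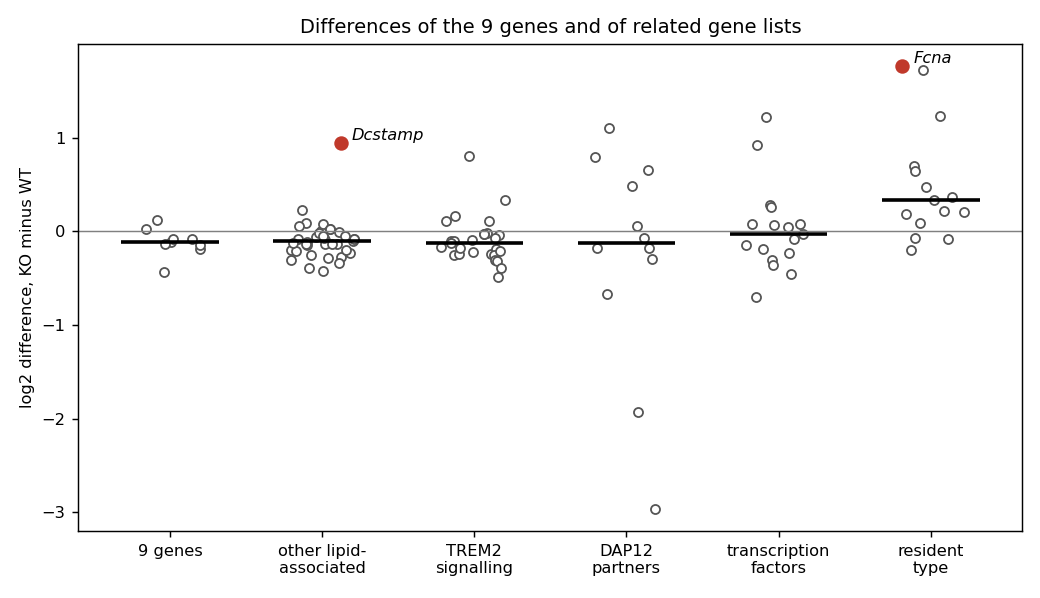
Log2 difference, KO minus WT, of the genes of 6 lists (1 circle a gene, black bar for the median, filled red for genes past the adjusted p threshold). Medians are -0.12 for the 9 markers, -0.10 for other genes of lipid-associated macrophages, -0.12 for TREM2 signalling, -0.12 for partners of DAP12, -0.03 for transcription factors and 0.33 for the resident type; Dcstamp and Fcna are the red circles.

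Resident macrophages of fat, which lie along vessels and carry scavenger receptors, form the counterpart of the lipid-associated type. Of 15 measured genes of that kind, 1 rose and 0 fell, where 0.181% of all genes rose. Of the list, 3 were below 0 (20.0%, against 47.6% of all genes) and 7 had an unadjusted limma p under 0.05 (46.7%, against 9.14%), with a median difference of 0.33. The gene that rose was Fcna, which encodes the lectin ficolin A, with 3098 ± 941 in KO and 944 ± 385 in WT, a log2 difference of 1.76 (SE 0.28; limma, adjusted p = 0.013). It was past the threshold in 1 of 9 fits with a library left out, and not with limma-voom (adjusted p = 0.063) or in the deeper libraries alone, where the difference was 1.18 (adjusted p = 0.46). Among 17 transcription factor genes of lysosomal, lipid and macrophage programmes, 0 passed, 9 were below 0 and 8 above. There were 3 with an unadjusted limma p under 0.05 (17.6%, against 9.14% of all genes). Nfe2l2, a regulator of the oxidative stress response, was at 48236 ± 1915 in KO and 56658 ± 1571 in WT without overlap (difference -0.23; adjusted p = 0.16). Pparg, a receptor for fatty acids that drives Fabp4, was at 3418 ± 896 and 4640 ± 886 (difference -0.46; adjusted p = 0.46). Bhlhe40, another of these factors, stood the other way, at 15938 ± 2893 in KO and 13171 ± 653 in WT (difference 0.26, limma, adjusted p = 0.51). Over all these lists, 2 of 151 genes rose and 0 fell, against 27 and 19 of all 14905 genes. In RNA from sorted cells in bulk, fewer cells of a type and less RNA per cell cannot be told apart, for the markers and for these lists alike.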

How the data were processed

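The authors deposited 1 table of a signal per gene and library. Its linear values, never under 1, behave as read counts over 1 factor per library: in each library at least 99.4% of those above 1 equalled a whole number of steps (tolerance 0.1 step). The submitters' processing notes list HISAT, Partek, DESeq2, CASAVA 1.8.2 and mm10, without their roles; the annotation and the treatment of shared reads are not given in the labels.

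The test was limma 3.58.1 (R 4.3.3) with a mean-variance trend on log2(normalized count + pseudocount of 1), genotype as the only term, Benjamini-Hochberg adjusted over 14905 genes at 0.05. For low genes differences on this scale depend on the pseudocount and on libraries at the floor. Exact permutation tests were run in Python 3.11.15. Lengths and positions come from GENCODE M21 (GRCm38), promoters from RefSeq. The code was tested on simulated data. The 9 markers and all lists were chosen with earlier results of these data known. Named are all markers, list genes past the threshold or else up to 4 of smallest p at or above the median level, and the 3 genes nearest each marker; Ctss, Lipa, Cstb, Clec9a, Tspan2, Clu, Fabp1, Fabp3, Fabp7, Csf1r, Cd68 and Lyz2 are outside that rule. Alternatives were pseudocounts of 0.1 and 10, filters, scalings, array weights, robust moderation, depth class, replicate number and each library left out; limma-voom, equal totals, core-marker scaling and a filter on values above 1 were added after seeing the data, as were the ratios. Intervals cover the spread between libraries only.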

Additional observations from a re-analysis of the deposited data

Results flagged for a closer look

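In 67 genes examined by group, a library far from its group was found in 5 of 133 groups of 4 or 5 libraries, where chance alone gives about 5%; none of the 18 groups of the markers themselves was among them. Dcstamp, which rose in KO, had its lowest KO value in KO 2, at 5173.89 normalized counts, with the other 4 KO libraries between 6986 and 7346. Cd14, a co-receptor for lipopolysaccharide, was at 274472 in KO 1 and between 205263 and 224740 in the other KO libraries. Lgals9, a galectin, was at 11384.5 in KO 1 and otherwise between 9469 and 9783. The integrin chain gene Itgal was at 3248.47 in KO 5 and otherwise between 1109 and 1661. The tetraspanin gene Tspan14 was at 5812.33 in KO 4 and otherwise between 4569 and 4902.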

How the results depend on the processing

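In all 24 alternatives 0 of the 9 markers passed the threshold, and Trem2, Tyrobp, Cd63, Gpnmb, Lgals3 and Fabp5 kept the sign of their difference. Cd9 turned to -0.034 with a term for depth class, -0.064 in the deeper libraries, -0.0035 without KO 2 and -0.072 without WT 3, the range without 1 library being -0.072 to 0.11. Spp1 ranged from -0.27 to 0.0060 (without WT 1) and Itgax from -0.14 to 0.013 (without WT 4) when 1 library was left out, and Itgax was at 0.036 in the deeper libraries; the cause was not tested. Of all genes, 46 passed (27 higher, 19 lower; 35 and 15 with equal library totals, 12 and 20 with limma-voom), and 0 in the deeper libraries alone (limma; 1039 at an unadjusted p under 0.05), where there are fewer libraries; leaving out 1 library gave 5 to 38. Of the 151 related genes 2 passed, with limma-voom 1, in the deeper libraries 0 (limma; 16 at an unadjusted p under 0.05), and 0 to 2 without 1 library. The 3 pairs of correlated markers became 0 under quantile normalization, equal library totals, core-marker scaling and in the deeper libraries alone, and 0 to 2 without 1 library; the cause was not tested. Same-numbered KO and WT libraries had weak correlations of their deviations (r from -0.05 to 0.09), and differently numbered ones ran from -0.11 to 0.08. The highest of all was that of KO 2 with WT 2. With so few same-numbered libraries these values cannot decide whether the numbers pair them. With the replicate number as a block (replicate block), which drops KO 5, 0 genes passed (limma; 1104 at an unadjusted p under 0.05), 0 related genes (23 at an unadjusted p under 0.05) and 0 markers; Fabp5 was then at -0.35 (adjusted p = 0.48) and Tyrobp at -0.16 (adjusted p = 0.63). The difference in the ratio of Itgax to Itgam kept its sign and its separation in each fit without 1 library and in the deeper libraries (-0.20). With the union of exons as length, the places of Cd9, Cd63, Gpnmb, Spp1 and Trem2 by level became 3, 4, 6, 5 and 7.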
